A study of Mus musculus with 2 samples.

Results

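The Ly6 surface antigens are small proteins held on the cell surface by a glycosylphosphatidylinositol (GPI) anchor and built on a fold of short loops tied by disulfide bonds. In mouse blood formation they serve as antibody targets that sort cells by lineage: Ly6g marks neutrophils, Ly6c marks monocytes and several lymphocyte subsets, Ly6d marks B-lineage progenitors, and Ly6a (Sca-1) marks stem and progenitor cells. The widely used Gr-1 antibody RB6-8C5 binds Ly6g and, more weakly, Ly6c. Most of the genes lie side by side in a cluster on mouse chromosome 15.

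A list of 8 genes was sought (Ly6a, Ly6c1, Ly6c2, Ly6d, Ly6e, Ly6g, Ly6i and Ly6k), and a gene was taken where a probe set of the array named it and no other gene. This gave 5 genes with 1 probe set each, Ly6d, Ly6e, Ly6g, Ly6i and Ly6k. By the same rule 19935 genes were measured in all, by 21780 of the 28815 probe sets. Ly6c1 and Ly6c2 were named only together, by 2 probe sets, so neither has a value of its own. No listed probe set named Ly6a, which was not analysed here.

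Expression was measured by GeneChip in 2 populations sorted from the bone marrow of ddY mice aged 6 weeks, an outbred stock, with no treatment of the mice in the labels. The sort used antibodies to RANK, through which RANKL drives osteoclast formation, and to c-Fms, through which M-CSF acts, on the mononuclear fraction of a gradient. It gave RANKhighFmslow cells and RANKlowFmshigh cells, and each was hybridised to 1 array. How many mice contributed is not in the labels. Each value is thus read once, without replicates, and no difference was tested.

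The values are linear intensities, and differences are log2 intensity in RANKhighFmslow cells minus that in RANKlowFmshigh cells. Genes were counted as apart at 2-fold or more where the higher intensity was 93.6 or more, which is the median over both arrays together. As a guide to background, the 95th percentile of 1189 olfactory and vomeronasal receptor genes was 83.8 on the RANKhighFmslow array and 81.8 on the RANKlowFmshigh array. Where the lower of a gene's intensities lay under that guide, its fold is the higher intensity over the guide and is written as "at least". Csf1r, which encodes c-Fms, stood at 164 in RANKhighFmslow cells against 821 in RANKlowFmshigh cells, in the direction of the sort. Tnfrsf11a, which encodes RANK, stood at 104 in RANKhighFmslow cells against 119 in RANKlowFmshigh cells, not far over the guide on either array. The name RANKhigh thus refers to the sort. Values this low cannot show whether the transcript follows it.

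Of the 5 genes, 4 passed the level filter, each with both of its intensities, and they divided between the populations. Ly6g and Ly6d were at least 2-fold higher in RANKhighFmslow cells, Ly6e was 1.66-fold lower there, and Ly6k differed little. The count of 2 of 4 compares with 4.34% of the 11089 genes past the filter that were at least 2-fold higher. No gene of the 5 was at least 2-fold lower (0 of 4 past the filter), where 4.26% of the filtered genes were. The median log2 difference of all 5 genes was 0.16, beside 0.01 over all genes measured. The median hides the spread, since single members ran from -0.73 to 3.34.

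**Figure D1:**
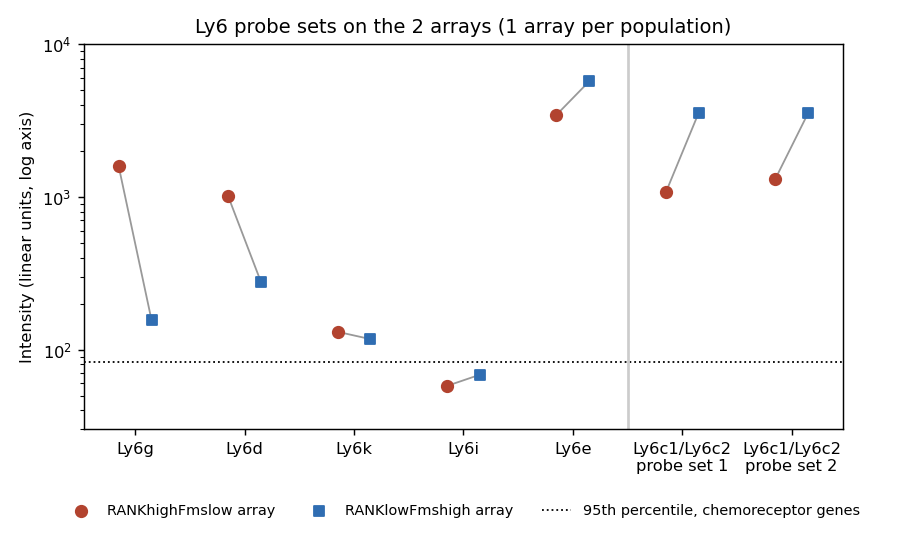
Intensity (log axis) of each Ly6 probe set on the RANKhighFmslow array (red circles) and the RANKlowFmshigh array (blue squares), 1 array per population, so there are no error bars. Ly6g (1581 in RANKhighFmslow cells, 156 in RANKlowFmshigh cells) and Ly6d (1009 in RANKhighFmslow cells, 277 in RANKlowFmshigh cells) slope down to the right, Ly6e and both probe sets shared by Ly6c1 and Ly6c2 slope up, and Ly6i lies under the dotted background guide on both arrays. Heights of different probe sets are not comparable with each other.

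Ly6g, the neutrophil surface antigen, had an intensity of 1581 in RANKhighFmslow cells and 156 in RANKlowFmshigh cells. The log2 difference of 3.34 (10.1-fold) ranked 5 from the top among the 11089 filtered genes. The RANKlowFmshigh value was above the background guide of 81.8, so the fold is a measured one and not a bound. By the distance between the log2 intensities on the 2 arrays, the genes most like Ly6g were Icam4, an erythroid adhesion protein gene (distance 0.36), and Nxpe2 (distance 0.39). Their folds were 7.43 and 7.13. With only 2 values per gene this likeness describes position on these arrays and nothing more.

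Other neutrophil genes lay on the same side as Ly6g, though not all of them. Of 17 markers measured, 8 reached 2-fold in favour of RANKhighFmslow cells and 0 reached it the other way. The median log2 difference was 0.99. Their summed intensity was 48736 in RANKhighFmslow cells against 22027 in RANKlowFmshigh cells, and none lay under the background guide on both arrays. Retnlg, a resistin-like protein gene of marrow granulocytes, was 17.3-fold higher, the siderophore-binding protein gene Lcn2 7.43-fold, the chemokine receptor gene Cxcr2 6.11-fold and the cathelicidin gene Camp 5.68-fold. The 4 markers with a lower value in RANKhighFmslow cells were Ctsg (-0.57), Mpo (-0.55), Prtn3 (-0.46) and Csf3r (-0.34). Ctsg, Mpo and Prtn3 encode proteins of the primary granules, made early in neutrophil development, and Csf3r encodes the G-CSF receptor. Elane, another primary granule protein gene of the list, lay on the other side (0.29), at 873 in RANKhighFmslow cells against 716 in RANKlowFmshigh cells. The 4 markers below 0 and Elane were singled out after their values were seen. In sorted bulk cells, fewer cells of a type and less RNA per cell cannot be told apart. Cells were sorted from the mononuclear fraction, and how many mature neutrophils it still held was not measured. The part of neutrophil number in the Ly6g difference was not tested.

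Ly6d, which marks lymphoid progenitors committed to the B lineage and is also found on plasmacytoid dendritic cells, had an intensity of 1009 in RANKhighFmslow cells and 277 in RANKlowFmshigh cells. Both values were well over the background guide, and the log2 difference was 1.87 (3.64-fold), above that of 99.0% of the filtered genes. The genes nearest to it in the 2 log2 intensities were Pf4, a platelet chemokine gene (959 in RANKhighFmslow cells against 283 in RANKlowFmshigh cells), at a distance of 0.08, and Cd2, a lymphocyte adhesion receptor gene (1041 in RANKhighFmslow cells against 258 in RANKlowFmshigh cells), at 0.11.

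The marker lists of B-lineage cells and plasmacytoid dendritic cells both had medians above 0, by different amounts. Of 18 B-lineage markers measured, 15 were past 2-fold on the RANKhighFmslow side and 0 on the other. The list's median log2 difference was 1.80. Their summed intensity was 19633 in RANKhighFmslow cells against 5919 in RANKlowFmshigh cells, and 1 of them, the recombinase gene Rag2, lay under the guide on both arrays. Pax5, the commitment factor of the lineage, was 5.89-fold higher, and the surrogate light chain partner gene Vpreb3 was 5.40-fold higher. Of 9 plasmacytoid dendritic cell markers, 2 reached 2-fold, and the median was 0.49. These were Spib (3.75-fold), an ETS factor that B cells use as well, and Cox6a2 (2.66-fold). Siglech, a receptor gene that defines these cells, stood at 285 in RANKhighFmslow cells against 166 in RANKlowFmshigh cells, which is 1.72-fold. Of the 9, 8 lay above 0 and 1 below: Irf7, an interferon regulatory factor gene named after its value was seen, stood at 136 in RANKhighFmslow cells against 191 in RANKlowFmshigh cells (-0.49). The summed intensity of the dendritic list was 2914 in RANKhighFmslow cells against 1830 in RANKlowFmshigh cells, with none under the guide on both arrays. The part of either cell type in the Ly6d difference was not tested.

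Ly6e, known in mouse placenta as the receptor of syncytin-A and widely expressed as an interferon-inducible protein, had an intensity of 3431 in RANKhighFmslow cells and 5698 in RANKlowFmshigh cells. The log2 difference was -0.73, short of 2-fold, and 8.40% of the filtered genes had a lower difference. As a measure of how far probe sets of the same gene disagree within these arrays, 558 filtered genes with 2 probe sets had a median gap of 0.19 between their log2 differences and a 90th percentile of 0.67. The Ly6e difference exceeded that percentile in size. It was close to it, at -0.68, after a lowess trend on level was removed and after quantile normalization. The gap compares probe sets on the same 2 arrays, so it does not measure variation between samples. Ly6e itself has 1 probe set.

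The other interferon-stimulated genes had a median log2 difference of -0.49, on the same side as Ly6e. Of 16 measured, 11 lay below 0 and 5 above, and 2 were 2-fold or more higher while 3 were 2-fold or more lower. The GTPase gene Mx1 was 2.89-fold lower, the oligoadenylate synthetase-like gene Oasl2 2.37-fold lower and the nucleic acid sensor gene Zbp1 2.32-fold lower. In the other direction the exonuclease gene Isg20 was 4.73-fold higher and the antiviral enzyme gene Rsad2, named after its value was seen, 2.14-fold higher. The list's summed intensity was 4508 in RANKhighFmslow cells against 4096 in RANKlowFmshigh cells, opposite in direction to its median. A sum weighs bright probe sets most, and Isg20 was the brightest in RANKhighFmslow cells. It stood at 1353 in RANKhighFmslow cells against 286 in RANKlowFmshigh cells. Whether the Ly6e difference belongs with the interferon-stimulated genes was not tested.

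Ly6k, an antigen gene known chiefly from mouse testis and sperm, had an intensity of 131 in RANKhighFmslow cells and 117 in RANKlowFmshigh cells. Both were over the background guide, and the log2 difference of 0.16 was smaller than the 0.19 median gap between probe sets of the same gene. Ly6i, a close relative of Ly6c in the cluster, had 57.8 in RANKhighFmslow cells and 68.4 in RANKlowFmshigh cells. Both values lay under the guide, so Ly6i cannot be called detected, and its difference has no reading.

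**Figure D2:**
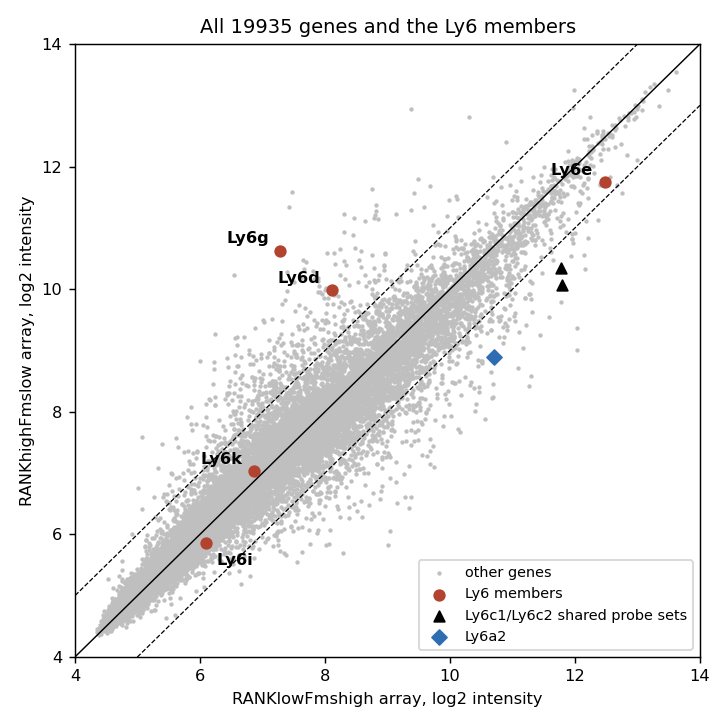
Log2 intensity of all 19935 genes on the RANKhighFmslow array (vertical) and the RANKlowFmshigh array (horizontal); the solid line marks equal values and the dashed lines 2-fold. Ly6g and Ly6d lie above the upper dashed line, Ly6e lies between the solid and the lower dashed line, and Ly6a2 and both shared Ly6c1 and Ly6c2 probe sets lie below the lower dashed line.

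The Ly6c signal was lower in RANKhighFmslow cells, in the direction opposite to Ly6g. The first probe set that names both Ly6c1 and Ly6c2 had 1067 in RANKhighFmslow cells and 3537 in RANKlowFmshigh cells, a log2 difference of -1.73 (3.31-fold). The second had 1305 in RANKhighFmslow cells and 3521 in RANKlowFmshigh cells, a log2 difference of -1.43 (2.70-fold). Both are annotated to the same 11 transcript accessions, so they are not independent readings, and how much of the signal came from each gene cannot be told apart. They stand outside the count of members, because they name more than 1 gene.

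Ly6a2, a Ly6a-like gene that is no member of the list but lies inside the cluster, had 474 in RANKhighFmslow cells and 1666 in RANKlowFmshigh cells. Its log2 difference was -1.81 (3.52-fold lower). Genes of this family are similar in sequence, and which transcripts its probe set binds was not tested. Monocyte markers, a list not limited to cells with high Ly6c, lay on the same side. All 12 measured were lower in RANKhighFmslow cells, 8 of them past 2-fold. The median was -1.97. Their summed intensity was 7578 in RANKhighFmslow cells against 25267 in RANKlowFmshigh cells, with none under the guide on both arrays. The factor XIII subunit gene F13a1 was 8.08-fold lower, Ms4a6d 6.84-fold and the fibronectin gene Fn1 6.34-fold. The list holds Csf1r, whose product was used for the sort. The part of monocyte number in the Ly6c and Ly6a2 differences was not tested.

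By the RefSeq gene table used here (GRCm38.p6), 24 genes lie from Ly6d to Ly6g on chromosome 15, ends included, and 15 of them code for protein. Of the 24, 11 had a probe set of their own and 5 passed the level filter: Ly6d, Ly6k, Ly6e, Ly6a2 and Ly6g, in that order. Ly6a2 and Ly6g are next to each other in that table with no gene between them, and their probe sets had log2 differences of -1.81 and 3.34. Which transcripts the Ly6a2 probe set binds was not tested. At the other end, Lynx1, whose product modulates nicotinic acetylcholine receptors, is the neighbour of Ly6d on the outer side. It stood at 261 in RANKhighFmslow cells against 110 in RANKlowFmshigh cells (2.39-fold), on the same side as Ly6d. The measured genes between Ly6d and Ly6e other than Ly6k, which are Ly6g6g, Gml, Cyp11b1, Cyp11b2 and Ly6m, all had intensities of 50.7 to 70.7 and lay under the guide on both arrays.

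**Figure D3:**
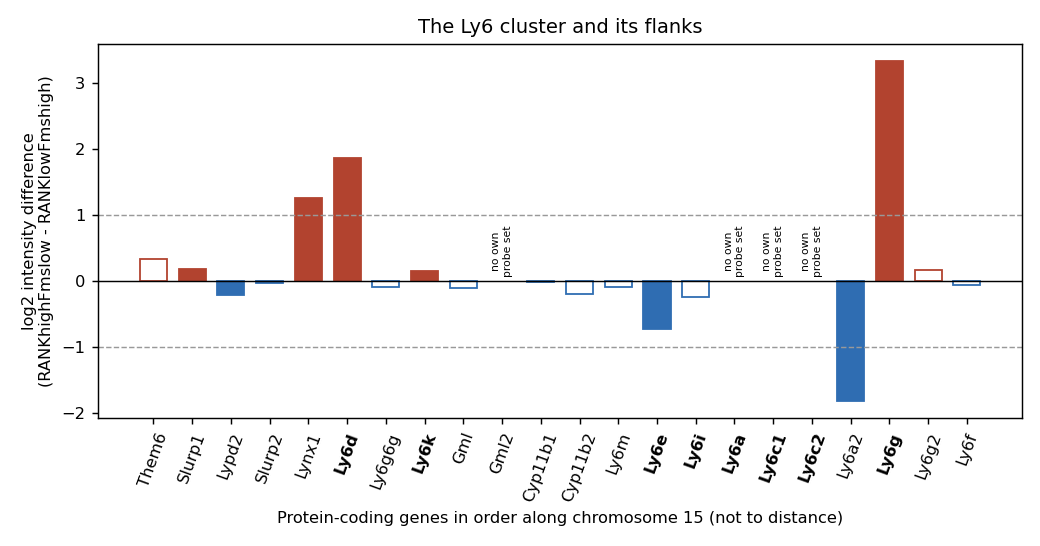
Log2 intensity difference (RANKhighFmslow minus RANKlowFmshigh) of protein-coding genes in their order along chromosome 15, with list members in bold, filled bars for genes past the level filter, open bars for the others and dashed lines at 2-fold. Lynx1 and Ly6d (1.25 and 1.87) and Ly6g (3.34) stand over the upper dashed line, and Ly6a2 (-1.81), the neighbour of Ly6g, stands under the lower one.

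Because the probe sets of Ly6g and its neighbour Ly6a2 differed in opposite directions, the start regions of these genes are shown for comparison. Those of Ly6c1 and Ly6c2, which have a joint signal only, are shown too. The sequences are from RefSeq, GRCm38.p6, which is a C57BL/6J genome and not that of ddY mice, and each holds 250 bases before and 50 bases after an annotated transcript start. Of the 8 listed genes 3 (Ly6c1, Ly6c2 and Ly6g) were in the sequence table used, and Ly6a2 was too. For Ly6g, Ly6c1 and Ly6c2, which have 2 windows each, 1 was chosen so that the windows line up. Capitals mark matches on either strand to GAGGAAG (a core bound by PU.1 and other ETS factors), TATAAA (the core promoter box of that name) or TTNNGNAA (a loose form of the palindromic C/EBP site).
Ly6g, chr15:75155079-75155378, plus strand: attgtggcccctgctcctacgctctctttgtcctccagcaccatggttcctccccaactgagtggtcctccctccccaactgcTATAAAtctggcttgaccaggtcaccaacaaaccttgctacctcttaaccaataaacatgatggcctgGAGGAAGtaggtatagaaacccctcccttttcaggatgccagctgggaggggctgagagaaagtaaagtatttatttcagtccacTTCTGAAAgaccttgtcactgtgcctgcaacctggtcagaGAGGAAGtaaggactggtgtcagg
Ly6a2, chr15:75135079-75135378, minus strand: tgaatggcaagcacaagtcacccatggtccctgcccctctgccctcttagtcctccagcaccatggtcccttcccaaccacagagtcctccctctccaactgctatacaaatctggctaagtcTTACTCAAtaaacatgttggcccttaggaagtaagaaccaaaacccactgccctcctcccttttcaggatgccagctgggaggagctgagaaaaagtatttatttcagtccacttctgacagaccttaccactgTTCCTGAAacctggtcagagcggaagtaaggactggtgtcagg
Ly6c2, chr15:75111922-75112221, minus strand: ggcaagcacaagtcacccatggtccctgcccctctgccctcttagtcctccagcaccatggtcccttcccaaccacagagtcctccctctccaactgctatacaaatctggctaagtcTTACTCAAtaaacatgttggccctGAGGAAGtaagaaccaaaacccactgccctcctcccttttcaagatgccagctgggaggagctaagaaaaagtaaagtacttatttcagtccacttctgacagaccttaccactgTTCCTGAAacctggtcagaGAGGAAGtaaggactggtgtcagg
Ly6c1, chr15:75048788-75049087, minus strand: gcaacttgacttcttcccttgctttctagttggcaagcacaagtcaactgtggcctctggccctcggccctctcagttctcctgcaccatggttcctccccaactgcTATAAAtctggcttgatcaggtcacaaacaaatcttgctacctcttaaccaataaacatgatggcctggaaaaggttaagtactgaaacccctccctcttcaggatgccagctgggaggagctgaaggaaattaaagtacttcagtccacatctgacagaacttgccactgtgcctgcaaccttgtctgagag

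The Ly6a2 and Ly6c2 windows were 95.4% identical over their alignment. The Ly6g window was 72.9% identical to that of Ly6c2 and 71.2% identical to those of Ly6a2 and of Ly6c1. GAGGAAG was found in the Ly6g window at -99 and 27 from the start and in the Ly6c2 window at -108 and 27, with no match in the Ly6a2 window. The printed Ly6c1 window has none either, but it ends 3 bases into a match that the other Ly6c1 window holds whole, at -127 from that window's start. Over all windows of these genes, 5 of 7 hold GAGGAAG. Windows of the same gene overlap, so a match can be counted more than once, and the genes are alike in sequence. GAGGAAG occurs in 13.6% of all 32817 windows in the table. TATAAA was found in the Ly6g window at -167 and in the Ly6c1 window at -143, and occurs in 13.6% of all windows. TTNNGNAA was found at -14 in the Ly6g window, at -127 and 8 in the Ly6a2 window and at -132 and 8 in the Ly6c2 window, and occurs in 40.7% of all windows. The interferon elements TTCNNNGAA (GAS) and GAAANNGAA (the core of an ISRE), which occur in 8.29% and 8.55% of all windows, had no match here (0 of the 7 windows of these genes). Positions are those of the leftmost letter as printed, and no marked matches overlap. A match is a description of letters and not a binding site.

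Beyond the list, most genes of the wider Ly6 and uPAR superfamily were low. Of 39 listed genes 35 were measured, 15 passed the level filter and 19 lay under the guide on both arrays. By measured values 3 of the 15 were higher by 2-fold or more in RANKhighFmslow cells, where 4.34% of all filtered genes were. Of the 15, 0 were lower by as much, where 4.26% of the filtered genes were. The median log2 difference of the 35 was 0.06. The 3 were Lynx1, with both values over the guide, and Cd59a and Cd59b, genes of inhibitors of the complement membrane attack complex. Cd59a stood at 136 in RANKhighFmslow cells against 40.2 in RANKlowFmshigh cells, and Cd59b at 106 in RANKhighFmslow cells against 50.4 in RANKlowFmshigh cells. Their values in RANKlowFmshigh cells were under the guide, so that the folds are bounds, at least 1.66 for Cd59a and at least 1.30 for Cd59b. By these bounds only Lynx1 of the 3 reached 2-fold. Erythroid cells carry complement inhibitors, and the 9 erythroid markers measured were all at least 2-fold higher in RANKhighFmslow cells (median 2.01, summed intensity 11884 in RANKhighFmslow cells against 3155 in RANKlowFmshigh cells). Their part in the Cd59a values was not tested. Plaur, the urokinase receptor gene, stood at 527 in RANKhighFmslow cells against 697 in RANKlowFmshigh cells, a log2 difference of -0.40. Ly6g6d and Ly6g6e had exactly the same value on both arrays (51.9 and 118), as did 245 genes in all.

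Other GPI-anchored proteins of leukocytes differed in both directions as well. Of 17 measured, 13 passed the level filter. In RANKhighFmslow cells 2 were higher by 2-fold or more and 1 was lower by as much, and the median was 0.29. Cd55, which encodes the complement decay-accelerating factor, stood at 576 in RANKhighFmslow cells against 137 in RANKlowFmshigh cells (4.19-fold), and the prion protein gene Prnp was at least 2.39-fold higher. Cd48, a ligand gene of the signalling lymphocyte activation family, stood at 711 in RANKhighFmslow cells against 1575 in RANKlowFmshigh cells (2.21-fold lower).

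The enzymes that build and attach the GPI anchor showed no common shift. Of 29 genes measured, 28 passed the level filter, 26 of which were within 2-fold, and the median was -0.10. Pigq, a subunit of the transferase of the first step, was 3.23-fold higher at 1077 in RANKhighFmslow cells against 334 in RANKlowFmshigh cells. Pign, an ethanolamine phosphate transferase gene, was 2.28-fold lower at 215 in RANKhighFmslow cells against 490 in RANKlowFmshigh cells. Mppe1, which trims the finished anchor, had a log2 difference of 0.71, and Pigk, the catalytic subunit of the transamidase, had -0.61.

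Markers of the remaining cell types in which Ly6 antigens are used were examined because Ly6a and Ly6c also label them. Of 12 T cell markers measured, 4 were higher by 2-fold or more in RANKhighFmslow cells and 0 were lower by as much. The median was 0.52 and the summed intensity 3084 in RANKhighFmslow cells against 1190 in RANKlowFmshigh cells. The CD3 chain gene Cd3d was 6.16-fold higher and Cd2 4.04-fold, and 4 of the 12 lay under the guide on both arrays. Stem and early progenitor markers (12 measured) had a median of 0.12 and a summed intensity of 1436 in RANKhighFmslow cells against 1521 in RANKlowFmshigh cells. Cd34 was 2.18-fold lower, and Slamf1, at least 2.16-fold apart, was higher. Flt3, a receptor kinase gene of early lymphoid and dendritic progenitors, had a log2 difference of -0.90. No value for Ly6a, the antigen of stem cells, stands beside these.

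**Figure D4:**
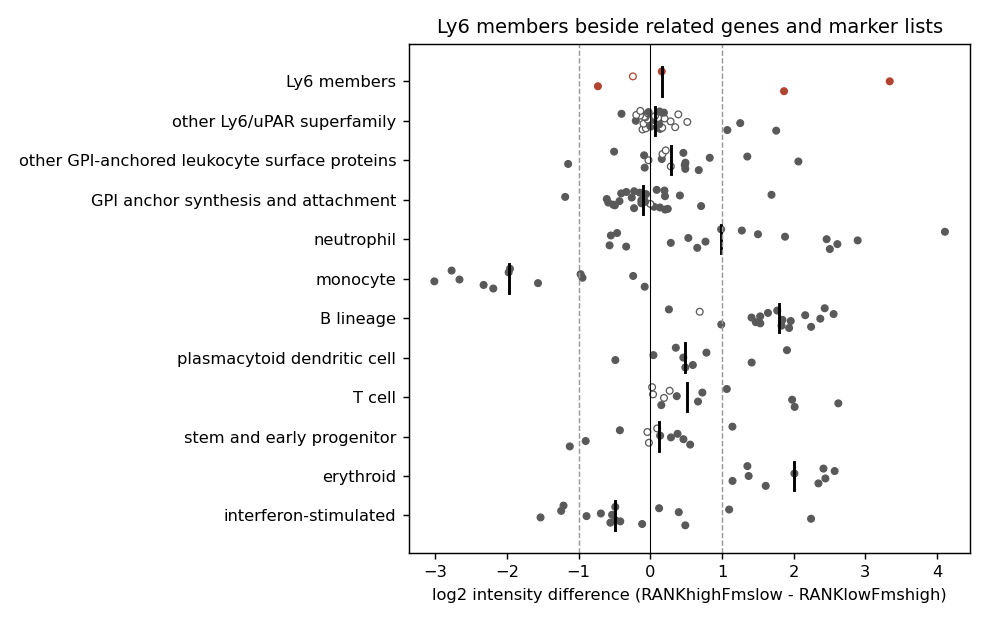
Log2 intensity difference (RANKhighFmslow minus RANKlowFmshigh) of each measured gene in the Ly6 list (red) and 11 other lists (grey), with open circles for genes below the level filter, a black bar at each list's median and dashed lines at 2-fold. Ly6g lies toward the upper end of the neutrophil range, Ly6d at the middle of the B-lineage genes (median 1.80), and the Ly6 list spans both sides of 0 with a median of 0.16.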

How the data were processed

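Total RNA of 2 sorted populations was amplified, labelled with biotin and hybridised to 1 array each, per the labels' protocols. The authors deposited an intensity on the linear scale for each probe set. Per the submitters' processing notes the tools were GCOS 1.4 and RMA. RMA gives log2 values, and the step back to linear values is not described there. Background and scaling were the authors' own. The arrays had medians of 94.5 (RANKhighFmslow) and 92.6 (RANKlowFmshigh).

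Here, log2 was taken with no pseudocount and no scaling (Python 3.11.15, pandas 2.3.3). The 2016 platform annotation gave a single gene for 21780 of the 28815 probe sets and several for 1605; it did not list 5430. Probe sets of a gene were averaged. No p-value or standard error was computed, and the number of arrays limits the precision. Promoter windows were aligned globally with Biopython 1.88. Named genes are the members, Csf1r and Tnfrsf11a, genes of the cluster, and the 2 genes nearest to each member at least 2-fold apart. From the 4 genes past the level filter that differed most in each list, some were named, and not all 4 for every list. Others were chosen after their values were seen (Rag2, Irf7, Rsad2, the neutrophil genes below 0, Elane, Ly6g6d, Ly6g6e and Lynx1 as a flanking gene). Members and lists were chosen with earlier results of these data known. The alternatives were a pseudocount, 3 scalings, other probe set choices, level filters and a 1.5-fold rule.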

Additional observations from a re-analysis of the deposited data

How the results depend on the processing

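No paired analysis was possible because each population has 1 array, and no replicate could be left out. The count of 2 Ly6 genes at least 2-fold higher in RANKhighFmslow cells was the same under all alternatives run. Those that could have lowered it were a pseudocount of 32, centring each array on its median, a lowess trend on level and quantile normalization. The brightest or dimmest probe set, both other level filters and the 1.5-fold rule could not lower it. Nor could the shared Ly6c1 and Ly6c2 probe sets added as 1 gene. The count of 0 at least 2-fold lower became 1 with the 1.5-fold rule (Ly6e; 12.4% of filtered genes were that far lower) and 1 with the shared probe sets, an alternative chosen after seeing the data. The median log2 difference of 0.16 became 1.01 over the 4 genes past either level filter, since Ly6i was left out, and -0.042 with the shared probe sets. Over the pseudocount, scaling and probe set alternatives Ly6g ran from 3.10 (the pseudocount) to 3.42, Ly6d from 1.75 to 1.95, Ly6e from -0.76 to -0.68, Ly6i from -0.27 to -0.16 and Ly6k from 0.11 to 0.16. Each member has 1 probe set, so the choice of probe set could not change these values. Intensities near the background guide limit Ly6i, Ly6k and most other genes of the superfamily.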
